A study of Mus musculus with 5 samples.

Results

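The cytosolic ribosome of the mouse is built from a small and a large subunit, and the genes described here encode its proteins. Members were the protein-coding genes of the count table whose symbol is Rpsa or is formed of Rps, Rpl or Rplp, a number and at most a short suffix. The rule gave 84 of 49671 genes, 31 for the small subunit and 53 for the large subunit, and it used no measured value. Some proteins of the ribosome have other kinds of symbol (such as Rps3a1, Rack1 and Fau) and are treated separately below. RNA was sequenced from single embryos at E6.75 by SmartSeq2, a full-length cDNA method that reads polyadenylated RNA and carries no molecular identifiers. Each library held the epiblast and the visceral endoderm (VE) of 1 embryo after the extra-embryonic ectoderm (ExE) had been cut away. The 2 SO+ embryos had no Cre transgene and were Oct4 fl/+, and the 3 SO− embryos were Sox2Cre+/- and Oct4 fl/-. Both genotypes came from a mixed strain background. The Sox2 promoter drives Cre mainly in the epiblast, and deletion is mosaic at the stages just before collection, so the VE of an SO− embryo keeps its floxed allele and some epiblast cells may do so.

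Ribosomal proteins assemble with the ribosomal RNAs in the nucleolus, and a cell makes the proteins of both subunits in nearly equal numbers. Their mRNAs are among the most abundant in growing cells. Many of them begin with a cytosine followed by a run of pyrimidines, the 5′ terminal oligopyrimidine (TOP) tract, through which mTORC1 signalling controls their translation. Early post-implantation embryos divide very fast and have a large demand for ribosomes. Mammalian genomes also hold many processed pseudogenes of these genes, reverse-transcribed copies without introns that can differ from the mRNA at only a few bases. Single genes of the group have known roles in development: loss of 1 copy of Rpl38 or Rpl24 alters the mouse body plan, and RPS19 and RPL5 are mutated in Diamond-Blackfan anaemia.

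Promoter sequences were found for 63 of the 84 members in the RefSeq table (GRCm38.p6). A cytosine at an annotated start followed by at least 4 further C or T was present in 13 of the 63 (20.6%), against 813 of 27025 genes in the whole table (3.01%). Where a gene had several annotated starts, the one with the longest tract was used for members and for all genes alike. The 9 members with tracts of 8 bases or more and Rps2, whose annotated start has no such tract, are shown with 10 bases before and 20 bases from the start, because Rps18 and Rps2 are the members that the comparison of genotypes turned on. Capitals mark the run of C and T from the start, and sequences read 5′ to 3′ on the gene's strand.
Rpl15 (chr14:18270967-18270996, minus): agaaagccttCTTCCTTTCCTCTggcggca
Rpl35 (chr2:39005112-39005141, minus): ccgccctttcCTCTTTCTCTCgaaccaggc
Rps10 (chr17:27635225-27635254, minus): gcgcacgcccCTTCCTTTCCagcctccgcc
Rps18 (chr17:33955646-33955675, minus): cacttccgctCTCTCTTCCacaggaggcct
Rps6 (chr4:86857348-86857377, minus): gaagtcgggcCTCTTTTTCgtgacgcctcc
Rpl28 (chr7:4792955-4792984, plus): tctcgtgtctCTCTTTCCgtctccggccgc
Rpl35a (chr16:33056472-33056501, plus): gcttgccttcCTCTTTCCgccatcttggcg
Rpl38 (chr11:114668570-114668599, plus): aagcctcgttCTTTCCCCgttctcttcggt
Rps15a (chr7:118116128-118116157, minus): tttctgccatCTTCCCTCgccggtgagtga
Rps2 (chr17:24720053-24720082, plus): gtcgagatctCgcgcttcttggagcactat

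The letters CTTTCC, which several of these tracts contain, stood on the gene's strand within 20 bases of the start in 11 of the 63 members (17.5%) and in 1.92% of all promoters. Over the full 300 bases of each promoter and either strand they were found in 30 members (47.6%) and in 26.4% of all promoters. TATAAA between 40 and 20 bases before the start was present in 1 member (1.59%), with 2.21% over all promoters. The 13 members with a tract had a median log2 fold change between genotypes of −0.04 and the other 49 that were tested had −0.05. A tract was scored only if it began with a C at the annotated base. In Rpl7a and Rpl27a, for example, a run of C and T spans an annotated start that is a T, and they were scored without a tract. The other 49 are therefore not a set of members known to lack TOP tracts. One member of each set, Rps18 and Rps2, passed the test described below.

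The libraries differed in depth by genotype, with totals of 27047148 and 27538119 counts in the SO+ embryos and between 1117566 and 4191498 in the SO− embryos. Libraries of the same genotype also shared one sequencing index, so depth and index cannot be told apart from genotype. Oct4, encoded by Pou5f1, was at 920 and 435 CPM (counts scaled to library size, per 1e6) in the SO+ embryos and at 27.8, 12.5 and 43.7 CPM in the SO− embryos, so the targeted gene followed the labels. Of 8 epiblast markers, 3 were lower in SO− embryos (Pou5f1, Utf1 and Dnmt3b), and the list was at 7618 and 6418 CPM in SO+ embryos against 3643, 2990 and 4678 CPM when all 8 were summed. Sox2, Fgf5 and Epcam had positive estimates, the highest a log2 fold change of 0.56 for Sox2, that did not pass. The 10 VE markers were all detected and summed to 4208 and 4160 CPM in SO+ embryos and to 5791, 5863 and 3796 CPM in SO− embryos. None of them passed edgeR's test (3 at an unadjusted p under 0.05, none with DESeq2 or limma-voom). Once SO− embryo 3 was left out 5 did, beside 263 of 14386 genes tested. No share of all genes at an unadjusted p under 0.05 is given beside these markers or the ExE markers below. Of the 10 ExE markers, 7 were tested and Hand1 alone passed edgeR's test, higher in SO− embryos. Of the 7, 6 had positive estimates, the median log2 fold change was 0.31, and 3 were at an unadjusted p under 0.05. In 3 the genotypes did not overlap and SO− embryos were higher, beside 14.2% of all genes. Elf5 and Esrrb were under 3 CPM in every embryo, and the list summed to between 322 and 476 CPM. Of 8 maternal and blood markers, 5 were at 0, the beta-globin genes among them, and the list summed to between 0.895 and 6.10 CPM. The part of tissue makeup in the results was not tested. In such mixed tissue, fewer cells of a type and less RNA per cell cannot be told apart.

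Ribosomal protein mRNA as a whole did not differ detectably between genotypes. The 84 genes summed to 64460.2 and 60593 CPM in SO+ embryos 1 and 2, and to 60863, 56329.6 and 66085 CPM in SO− embryos 1, 2 and 3. Between 5.63% and 6.61% of all counts therefore fell on these genes. The highest and the lowest of the 5 sums both belonged to SO− embryos, and the genotypes overlapped. Means were 62526 ± 2735 CPM (SD, n = 2) and 61093 ± 4882 CPM (SD, n = 3), a difference of −0.04 on the log2 scale (two-sided exact permutation test with 10 possible splits, p = 0.8, where 0.1 is the smallest p possible). Expressed relative to protein-coding genes outside the mitochondrial genome, the difference was −0.02 (exact permutation test, p = 0.9).

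**Figure D1:**
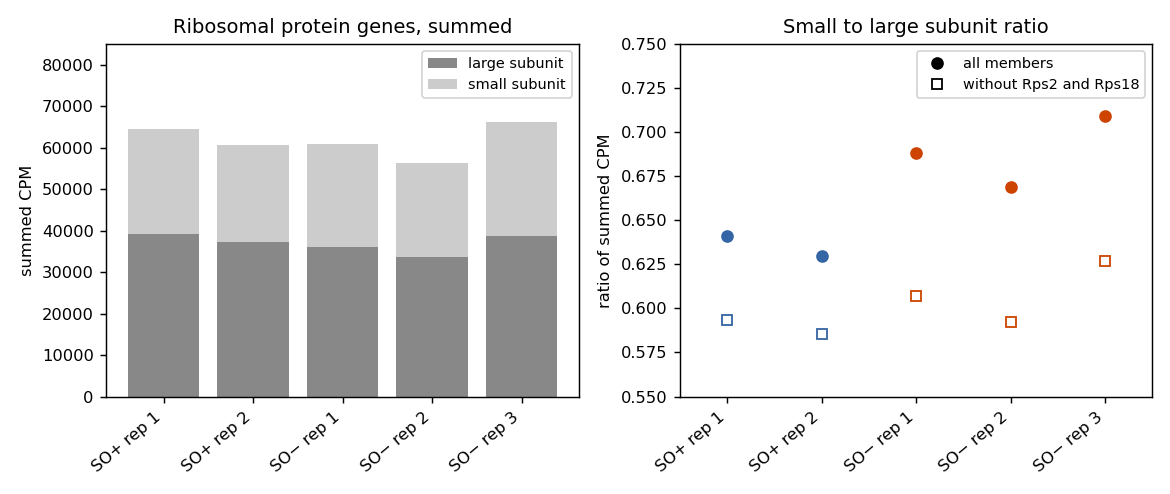
Left, summed CPM of the ribosomal protein genes in each embryo, with large subunit genes in dark grey and small subunit genes in light grey; the totals lie between 56329.6 and 66085 CPM and the genotypes overlap. Right, the ratio of small to large subunit CPM in each embryo on an axis that starts at 0.55, with SO+ in blue and SO− in orange; filled circles include all members, open squares leave out Rps2 and Rps18, and the gap between genotypes is wider in the circles.

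The balance between the subunits leaned slightly towards the small subunit in SO− embryos. Small subunit genes summed to 25185 and 23415 CPM in SO+ embryos and to 24813, 22574 and 27414 CPM in SO− embryos. For the large subunit the sums were 39275 and 37178 CPM against 36051, 33756 and 38671 CPM. The ratio of small to large was 0.641 and 0.630 in the SO+ embryos and 0.688, 0.669 and 0.709 in the SO− embryos, without overlap. The difference of 0.12 on the log2 scale reached the smallest p that this design allows (exact permutation test, two-sided p = 0.1) and so cannot pass 0.05. Rps2 and Rps18 carried much of it. Once both were left out, the ratio was 0.593 and 0.586 against 0.607, 0.592 and 0.627, the genotypes overlapped, and the difference was 0.05 (exact permutation test, p = 0.3). With the counts of pseudogene copies added to each member, the ratio was 0.649 and 0.640 against 0.680, 0.662 and 0.695, a difference of 0.08 (exact permutation test, p = 0.2). Taking the median log2 CPM of each subunit in place of the sum gave a difference of 0.04 (exact permutation test, p = 0.6).

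Gene by gene, 83 of the 84 members passed the filter on low counts and were compared with edgeR's quasi-likelihood test. Rps2 and Rps18 were higher in SO− embryos at an adjusted p under 0.05, and no member was lower. These 2 of 83 (2.41%) stand beside 2.35% of all 12067 genes tested, so the share of members that passed was close to that of genes in general. In the upward direction alone the background was 1.42%. At an unadjusted p under 0.05 there were 3 members, and the share of all genes at that threshold is not given here. Over the 83 the median log2 fold change (SO− over SO+) was −0.05, against −0.002 over all genes tested. Of the members, 19 had a positive and 64 a negative estimate, and 76 (91.6%) lay within 0.2 of 0 on either side, whereas 49.0% of all genes tested did. At an average log2 CPM of 7 or more, where counts are high, the shares were 95.0% of 80 members and 76.5% of 1682 genes.

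**Figure D2:**
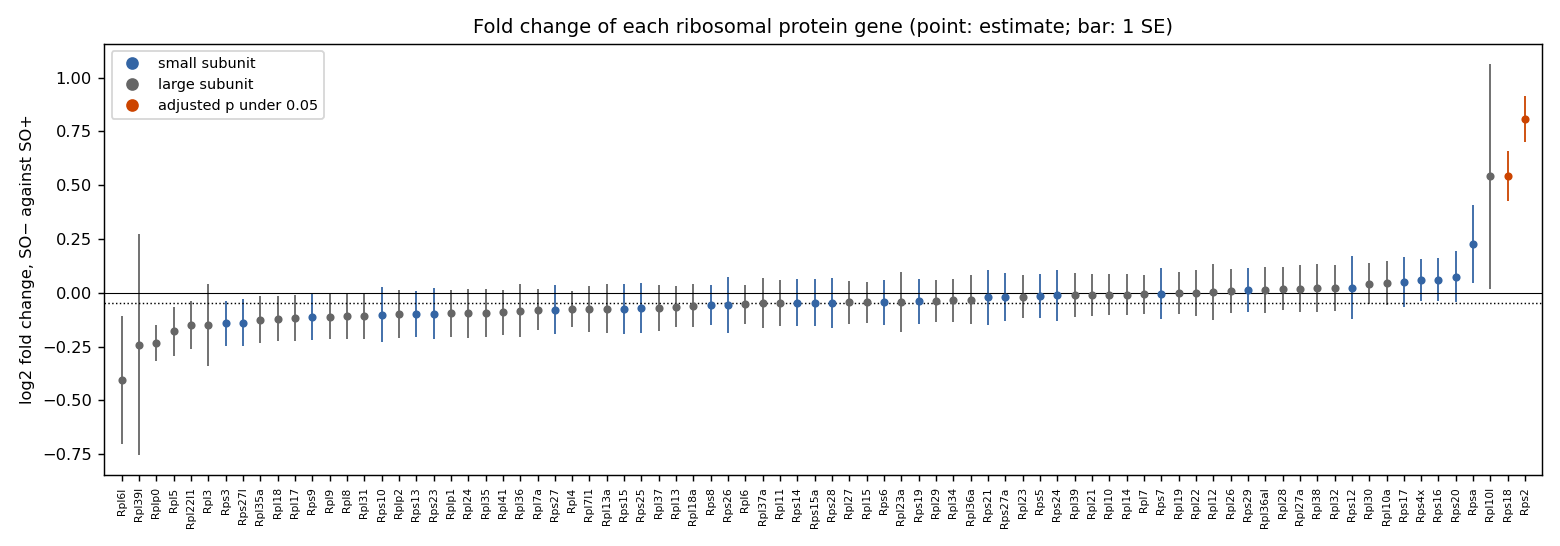
Log2 fold change of all but 1 of the 83 tested ribosomal protein genes (SO− over SO+, vertical axis), ordered along the horizontal axis, with bars of 1 standard error. Blue marks the small subunit, grey the large subunit and orange the 2 genes with an adjusted p under 0.05, Rps18 and Rps2 at the right; the dotted line is the median of −0.05, and Rpl6l, Rpl39l and Rpl10l at the ends have wide bars.

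Apart from a few genes, the members had closely similar fold changes. Over the 83 members the standard deviation of the log2 fold change was 0.152 and the interquartile range 0.092. Among the 80 members whose average log2 CPM was 7 or more the standard deviation was 0.133, and it was 0.293 over all 1682 genes at that level or above. Without Rps2 and Rps18 the remaining 78 had a standard deviation of 0.067, below the standard error of a typical member (median 0.107 over the 80). Fold change had little relation to the length of the exons, the GC content or the level of a gene (Pearson's r of 0.02, −0.07 and −0.05 across these 78 genes, which share the same 5 libraries and are not independent).

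Pairs of embryos gave the same picture without any model. Between embryos of 1 genotype the standard deviation over the 80 members of the log2 ratio of CPM was between 0.121 and 0.133 in the 4 pairs. In the 6 pairs of different genotype it was between 0.139 and 0.180. With Rps2 and Rps18 removed these ranges became 0.122 to 0.135 and 0.085 to 0.145, and overlapped. All 1682 genes with an average log2 CPM of 7 or more spread more widely, from 0.212 to 0.259 within and from 0.268 to 0.440 between genotypes. That set shares only this floor with the 80 members, which it includes, and was not matched to their levels. Counting error alone, without the amplification error that these reads also carry, would give between 0.017 and 0.071 in the same-genotype pairs. Rpsa, Rps12, Rps19, Rpl3 and Rplp0 were the extremes in those 4 pairs. The common shift, by contrast, depended on the embryos paired, with a median log2 ratio between −0.149 and 0.252 within genotypes and between −0.253 and 0.109 across them.

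**Figure D3:**
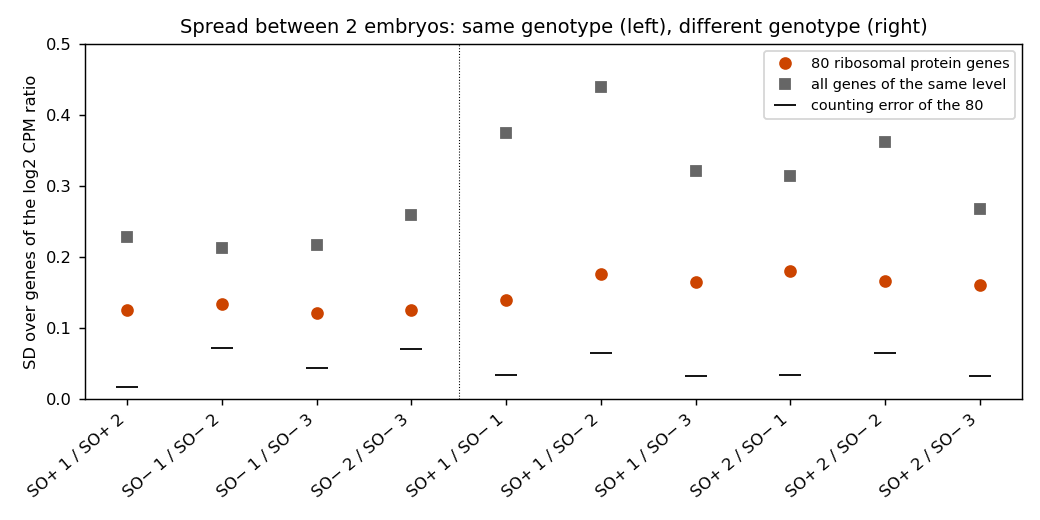
Standard deviation over genes of the log2 ratio of CPM between 2 embryos, for each of the 10 pairs, with pairs of 1 genotype left of the dotted line. Orange circles are the 80 ribosomal protein genes and dashes the part expected from counting the 80. Grey squares, labelled as genes of the same level, are all 1682 genes with an average log2 CPM of 7 or more, not matched by level. Circles lie below squares in every pair.

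Rps2 encodes a protein near the mRNA entry channel of the small subunit, and lies on chromosome 17 of GRCm38 from 24718116 to 24721929 (ENSMUSG00000044533). It was counted 33468 and 28598 times in the SO+ embryos and 8235, 1988 and 9068 times in the SO− embryos, or 1215 and 1057 CPM against 1992, 1779 and 2163 CPM. All 3 SO− embryos were above both SO+ embryos. The log2 fold change was 0.81 (standard error 0.11, edgeR adjusted p = 0.00147), a rise of 1.75-fold, and relative to the pool of ribosomal protein counts it was 0.83 (adjusted p = 8.96e-04). Relative to that pool 1.72% of all genes passed, and among members again Rps2 and Rps18.

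Rps2 has a processed copy of nearly the same sequence that was also counted. Rps2-ps13, on chromosome X from 52898588 to 52899469, was at 685 and 615 CPM in the SO+ embryos and at 13.1, 8.95 and 16.5 CPM in the SO− embryos, opposite to Rps2. Over the 879 coding bases of Rps2 the copy differs at 7 positions (identity 99.2%). Coding bases 1 to 90 hold 2 of them, shown here in capitals to let the likeness be seen.
Rps2: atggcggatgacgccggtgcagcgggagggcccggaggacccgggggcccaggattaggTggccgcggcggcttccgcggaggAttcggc
Rps2-ps13: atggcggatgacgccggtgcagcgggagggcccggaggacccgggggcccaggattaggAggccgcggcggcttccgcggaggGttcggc

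With the counts of all 40 matched copies added to it, Rps2 was at 1952 and 1717 CPM in SO+ embryos and at 2045, 1843 and 2224 CPM in SO− embryos. The genotypes then overlapped, and the log2 fold change was 0.16 (standard error 0.10, edgeR adjusted p = 0.552). In that fit, with the copies of every member pooled in the same way, Rps18 was the 1 member that passed, beside 2.53% of all genes. The call of Rps2 therefore depended on whether copies were added, and its rise is uncertain. How reads were divided between gene and copy, or whether the copy carried by each embryo differs, was not tested. Rpl3l, the neighbour of Rps2 and a large subunit paralog known from heart and skeletal muscle, was the member that the filter removed. It was counted 44 and 21 times in the SO+ embryos and not at all in the SO− embryos. Since 3 counts over the 3 SO− libraries together correspond to 0.318 CPM, against a mean of 1.19 CPM in SO+ embryos, it was at least 3.74-fold lower, a bound that covers counting error only. It fell to 2.44-fold without SO+ embryo 1, 2.10-fold without SO− embryo 1 and 2.08-fold without SO− embryo 3.

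Rps18 encodes a protein of the head of the small subunit that contacts the large subunit, and was the second member that rose. It lies on chromosome 17 from 33951999 to 33956001 (ENSMUSG00000008668), 1.55 Mb from Pou5f1. Its counts were 18492 and 15924 in the SO+ embryos and 3874, 889 and 4203 in the SO− embryos, or 672 and 589 CPM against 937, 795 and 1003 CPM. Again the genotypes did not overlap. The log2 fold change was 0.54 (standard error 0.12, edgeR adjusted p = 0.0268), and 0.57 relative to the pool (adjusted p = 0.0194). Its 9 matched copies did not offset the difference. They summed to 46.0 and 43.6 CPM in SO+ embryos and to 34.6, 34.9 and 36.3 CPM in SO− embryos, and with them added the log2 fold change was 0.50 (edgeR adjusted p = 0.0322). The call was not held by limma-voom (log2 fold change 0.57, adjusted p = 0.0559) or without SO+ embryo 2 or any of the 3 SO− embryos, where the fold change stayed between 0.45 and 0.63 and the adjusted p lay between 0.0566 and 0.281.

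The 5 other tested members on chromosome 17, Rps2 aside, had log2 fold changes between −0.10 and 0.05. Of these Rps28, Rps10 and Rpl10a lie within 10 Mb of Pou5f1, and their adjusted p was at least 0.817. Rps28, at 33819027 to 33824562 and thus the next member to Rps18, was at 442 and 397 CPM in SO+ embryos and at 417, 351 and 441 CPM in SO− embryos. Rps2 lies 10.8 Mb from Pou5f1. Whether Rps18 or Rps2 differ by alleles carried with the targeted locus was not tested. The 4 members on chromosome X, Rpl10, Rpl36a, Rpl39 and Rps4x, had log2 fold changes between −0.03 and 0.06. Genes of chromosome Y were detected in all 5 embryos, with a sum between 128 and 177 CPM, and Xist was between 1.21 and 18.6 CPM.

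Rpsa, Rplp0 and Rpl3 also had a copy whose level differed between embryos, with overlap between genotypes. Rpsa, the small subunit protein also known as the laminin receptor precursor, was at 1234 and 1747 CPM in SO+ embryos and at 1291, 1782 and 2148 CPM in SO− embryos. SO+ embryo 1 and SO− embryo 1 were thus low and the other 3 high. Its copy Rpsa-ps10 (chromosome 3, 150072658 to 150073542) was high in the embryos where Rpsa was low, with 235 and 20.8 CPM in SO+ embryos against 241, 15.2 and 19.1 CPM. Across genotypes the log2 fold change of Rpsa was 0.23 (standard error 0.18, edgeR adjusted p = 0.668). The copy differs from the 885 coding bases of Rpsa at 6 positions, 2 of which fall in coding bases 130 to 219.
Rpsa: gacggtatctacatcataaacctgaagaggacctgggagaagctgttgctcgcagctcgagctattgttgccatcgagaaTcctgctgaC
Rpsa-ps10: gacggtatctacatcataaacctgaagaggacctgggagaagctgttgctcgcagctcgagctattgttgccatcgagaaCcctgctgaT

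Rplp0, the base of the acidic stalk that recruits elongation factors, was the member with the highest mean level per length. It was at 3543 and 3905 CPM in SO+ embryos and at 2921, 3339 and 3213 CPM in SO− embryos, lower in all 3, and its log2 fold change of −0.23 (standard error 0.09) missed the threshold (edgeR adjusted p = 0.22). Its copy Gm8730 (chromosome 8, 102864845 to 102865798), which differs at 12 of 951 coding bases, was at 591 and 219 CPM in SO+ embryos and at 489, 163 and 517 CPM in SO− embryos. The embryos high in the copy were SO+ embryo 1 and SO− embryos 1 and 3. With copies added, Rplp0 was at 4294 and 4179 CPM against 3540, 3558 and 3880.0 CPM, so the genotypes still did not overlap (log2 fold change −0.21, edgeR adjusted p = 0.24). Rplp1 and Rplp2, the acidic partners that sit on Rplp0, had log2 fold changes of −0.10 and −0.10.
Rplp0, coding bases 358 to 447: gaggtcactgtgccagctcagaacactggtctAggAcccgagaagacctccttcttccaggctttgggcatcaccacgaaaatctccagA
Gm8730, the same stretch: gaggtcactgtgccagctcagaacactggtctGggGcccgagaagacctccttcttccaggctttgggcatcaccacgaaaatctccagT

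Rpl3, which lies close to the peptidyl transferase centre, varied widely among SO− embryos. It was at 692 and 850 CPM in SO+ embryos and at 600, 524 and 939 CPM in SO− embryos, and its log2 fold change was −0.15 (standard error 0.19, edgeR adjusted p = 0.827). Its copy Rpl3-ps1 on chromosome X was at 168 and 87.4 CPM in SO+ embryos and at 135, 120 and 90.7 CPM in SO− embryos. Adding the copies lowered the ratio of the highest to the lowest embryo from 1.79 to 1.60 for Rpl3, from 1.74 to 1.48 for Rpsa and from 2.05 to 1.30 for Rps2, and for Rps18 only from 1.70 to 1.64. Over the 80 well expressed members this ratio had a median of 1.23, and 32 of them stayed under 1.2. Altogether 78 members had at least 1 matched copy with 1 or more counts over the 5 libraries together, 573 copies in all. Of these copies, 55 reached 10 CPM in at least 1 embryo.

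**Figure D4:**
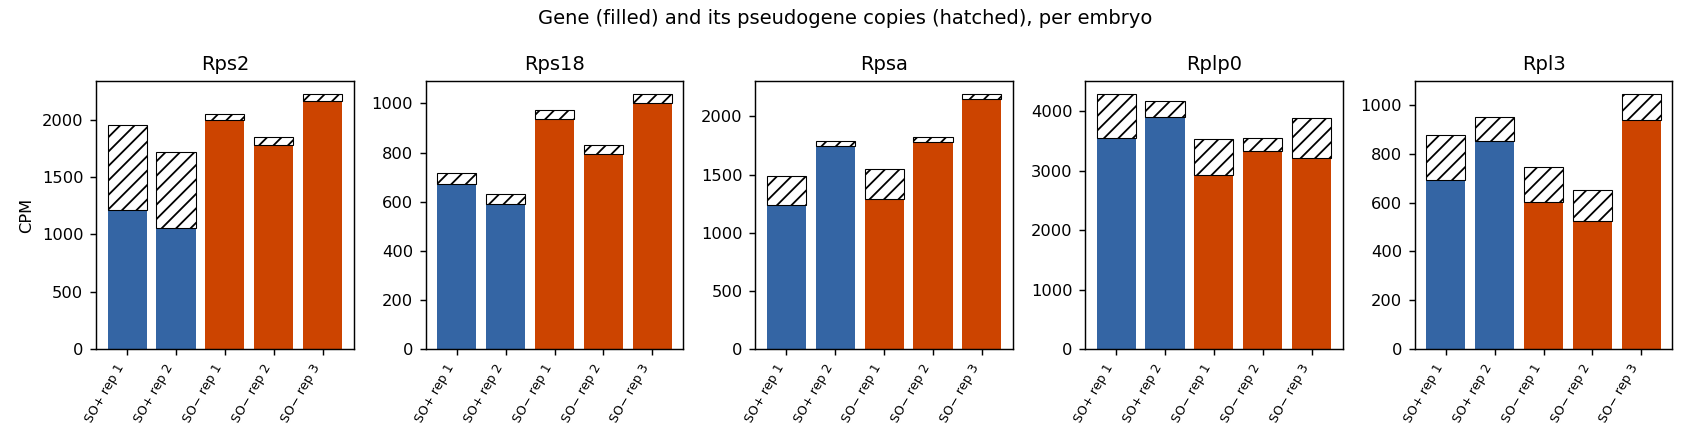
CPM of 5 ribosomal protein genes in each embryo (filled bars, SO+ blue and SO− orange) with the summed CPM of their pseudogene copies stacked on top (hatched). The hatched part of Rps2 is large only in the SO+ embryos, that of Rpsa is large in SO+ embryo 1 and SO− embryo 1, and that of Rps18 is small in all 5.

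The other members farthest from the median were close to it. Rpl5, which carries 5S rRNA into the large subunit together with Rpl11 and with it can bind Mdm2, was at 904 and 780 CPM in SO+ embryos and at 764, 641 and 809 CPM in SO− embryos (log2 fold change −0.18, standard error 0.11, edgeR adjusted p = 0.563). Rpl11 was at −0.05. Rps3, at the mRNA entry channel beside Rps2, had a log2 fold change of −0.14, and Rpl22l1 one of −0.15. On the upper side Rps20 was at 0.07 and Rps16 at 0.06. None of these passed the test. Between genotypes, 2 members did not overlap in scaled CPM upwards (Rps2 and Rps18), or 2.41% of members against 14.2% of all genes. Downwards there were 3 (Rplp0, Rpl22l1 and Rpl6l), or 3.61% against 15.1%.

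Of the 10 members named for known roles in disease or regulation, Rpl5, Rplp0 and Rpsa have been described above, and the other 7 were near 0. Rps19 was at 1017 and 873 CPM in SO+ embryos and at 996, 845 and 902 CPM in SO− embryos. Rps6, the substrate of S6 kinase, was at 470 and 464 CPM against 459, 408 and 482 CPM. Rpl38 was at 269 and 227 CPM against 247, 239 and 264 CPM, and Rpl24 at 279 and 268 CPM against 259, 226 and 276 CPM. Together with Rpl11, Rps14 and Rps27a, which is made as a fusion with ubiquitin, these 7 genes had log2 fold changes between −0.10 and 0.02, and the smallest adjusted p among them was 0.804. In each, the genotypes overlapped.

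Levels of members were compared with each other per kilobase of merged exon (FPKM), a length that includes retained introns of rare transcripts. Among the highest means were those of Rplp0 (2039.8 FPKM), Rplp1 (1715 FPKM), Rpl4 (1358 FPKM) and Rpl8 (1151 FPKM). The lowest among tested members were Rpl10l (4.24 FPKM), Rpl39l (5.18 FPKM), Rpl6l (17.5 FPKM), Rpl7l1 (59.3 FPKM) and Rps15a (83.6 FPKM, over 6270 bases of merged exon, the longest among members). The median over the 83 was 288 FPKM. The 3 lowest are paralogs of core genes, and their fold changes were poorly determined, with log2 values of 0.54 (standard error 0.52) for Rpl10l, −0.24 (standard error 0.51) for Rpl39l and −0.41 (standard error 0.30) for Rpl6l.

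Shares of paralogs beside their core gene did not differ detectably between genotypes. Of the counts on Rpl22 and Rpl22l1 together, the latter, which regulates splicing and can stand in for Rpl22, took 47.9% and 50.4% in SO+ embryos against 48.7%, 44.2% and 46.1%. Rps27l took 45.2% and 49.5% of its pair with Rps27, against 47.5%, 46.5% and 45.1%. For Rpl36al beside Rpl36a the shares were 47.2% and 49.4% against 46.5%, 52.3% and 48.8%. Rpl7l1 took between 9.48% and 11.03% in all embryos. The testis-associated Rpl39l and Rpl10l took at most 1.40% and 0.503% of their pairs. Rps4l, listed as a transcribed pseudogene and so not a member, took 16.4% and 17.5% of its pair with Rps4x against 13.5%, 15.1% and 16.97%. Differences in share between genotypes ranged from −2.79 to 0.96 percentage points over the 8 pairs. Only Rpl3l, with no counts in SO− embryos, reached the smallest possible p (exact permutation test, p = 0.1), and after Benjamini-Hochberg adjustment over the 8 pairs every p was 0.8.

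Around the ribosomal proteins, the other genes of the translation machinery gave few calls. Of the other ribosomal components, Rack1 was at 1996 and 1907 CPM in SO+ embryos and at 1849, 1680 and 1907 CPM in SO− embryos, and Fau, which encodes a ribosomal protein fused to a ubiquitin-like protein, had a log2 fold change of 0.01. Rps3a1 stood apart by embryo, with 867 and 203 CPM in SO+ embryos against 878, 176 and 204 CPM, so that SO+ embryo 1 and SO− embryo 1 were about as high as each other and the other 3 low (log2 fold change −0.31, edgeR adjusted p = 0.901). These are the same embryos in which Rpsa was low and Rpsa-ps10 high. Rps27rt was under 5 CPM.

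No gene of 7 companion lists passed edgeR's test or that of DESeq2 or limma-voom. Mitochondrial ribosomal proteins, 77 tested, had a median log2 fold change of −0.09, with 2 at an unadjusted p under 0.05, and 16 of them did not overlap downwards. Ribosome biogenesis factors, 62 tested, had a median of −0.14 with 50 of 62 negative and 8 at an unadjusted p under 0.05. In 29 of the 62 the genotypes did not overlap in scaled CPM and SO− embryos were lower, against 15.1% of all genes. Among the biogenesis factors was Sbds, which helps to release a factor from the new large subunit, with 60.03 ± 4.21 CPM (SD, n = 2) in SO+ and 42.6 ± 4.41 CPM (SD, n = 3) in SO− embryos (log2 fold change −0.48, edgeR adjusted p = 0.195). For RNA polymerase I, which transcribes the ribosomal RNA genes, the median over 15 was −0.12, 3 genes were under the unadjusted threshold and 4 did not overlap downwards. The 43 initiation factors had a median of −0.05 (5 at an unadjusted p under 0.05), the 13 elongation and termination factors −0.09 (2 genes) and the 20 other genes with TOP mRNAs −0.01 (1 gene). Downward non-overlap was seen in 12 of the 43, 6 of the 13 and 2 of the 20. Upward non-overlap, 14.2% over all genes, was seen in 4 mitochondrial ribosomal proteins, 2 biogenesis factors and 0 RNA polymerase I genes. It was seen in 4 initiation factors, 1 elongation or termination factor and 2 other genes with TOP mRNAs. The share of all genes at an unadjusted p under 0.05 is not given here, so those counts have no background beside them. Eef1a1 and Eef2, which deliver aminoacyl-tRNA and move the ribosome along, were at 0.01 and 0.02. The 5 other ribosomal components had a median of −0.10 and no gene under the unadjusted threshold.

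Regulators of the pathway that controls TOP mRNAs gave 2 calls of 26, both lower in SO− embryos, beside 2.35% of all genes called in either direction. Deptor, an inhibitor of mTOR, was at 52.5 and 35.6 CPM in SO+ embryos and at 14.0, 17.001 and 22.7 CPM in SO− embryos (log2 fold change −1.28, standard error 0.25, edgeR adjusted p = 0.018). Rragd, a small GTPase that brings mTORC1 to the lysosome, was at 163 and 138 CPM against 75.7, 68.0 and 111 CPM (log2 fold change −0.79, standard error 0.18, edgeR adjusted p = 0.0346). In both, the genotypes did not overlap. The list's median was 0.01, and limma-voom called neither gene. DESeq2 called 2 genes of this list. None was called without SO− embryo 1, where 46 of 14395 genes passed, or without SO− embryo 2, where 35 of 14385 did.

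**Figure D5:**
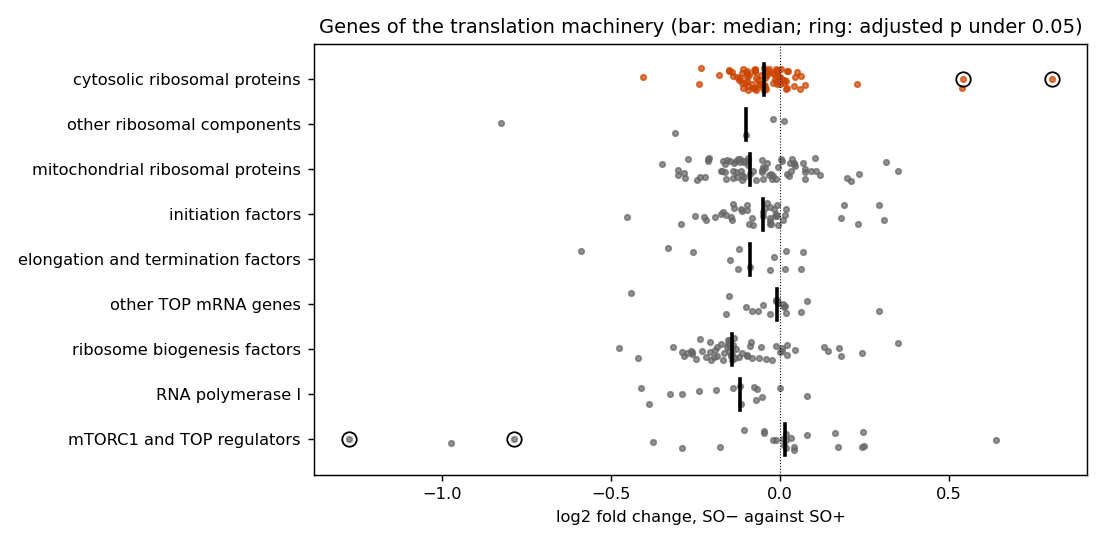
Log2 fold change (SO− over SO+) of every tested gene in the ribosomal protein group (orange) and in 8 lists of genes around it (grey), with vertical bars at the medians and rings on genes with an adjusted p under 0.05. Vertical positions within a row are arbitrary; the ringed genes are Rps18 and Rps2 in the top row and Deptor and Rragd in the bottom row.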

How the data were processed

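The authors trimmed reads with cutadapt, aligned them to GRCm38/mm10 with STAR, counted them on genes of Ensembl 87 with HTSeq and deposited whole-number read counts per gene and embryo, not normalized. The use of strand and of reads that match several places is not given in the sources used here, and either could move reads between a gene and its copies. All 5 libraries were used, 1 per embryo, grouped by the labels. Coordinates and exon lengths came from GENCODE M21 on the same build, promoters from RefSeq (GRCm38.p6), and copies were pseudogenes matched by BLAST to a member's transcripts at 90% identity or more over at least 200 bases or 80% of the copy.

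Counts were analysed in R 4.3.3 with edgeR 4.0.16 (TMM scaling, the filterByExpr filter and a quasi-likelihood F test between genotypes) over all genes, with Benjamini-Hochberg adjustment and a threshold of 0.05. The fit relative to the pool used the summed member counts as library size. Sums, ratios and shares were compared by exact permutation over 10 splits. Alternatives were DESeq2 1.42.0, limma-voom (limma 3.58.1), other scalings and filters, length and GC trends, thinning of SO+ libraries in 10 draws, the replicate number as a block, each embryo left out and, chosen after seeing the data, copies added to members and sums without Rps2 and Rps18. The fits were tested on simulated counts. A count of 3 corresponds to 0.109 CPM in the deepest library and 2.68 CPM in the shallowest. Each library was 1 embryo, so p-values measure the spread between libraries, in which embryo and library preparation cannot be told apart.

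Named members were those that passed a test, the 5 farthest above and below the median with an average log2 CPM of at least 5, the 5 highest and 5 lowest in FPKM, paralogs and their partners, members removed by the filter, members on chromosome X or within 10 Mb of Pou5f1, 10 members with known roles, and called genes of the companion lists. Some items that this rule names are not reported here. Rps12, Rps3a1, Sbds and the copies were named after their values were seen. Members and lists were chosen with earlier results of these data known.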

Additional observations from a re-analysis of the deposited data

How the results depend on the processing

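With 2 against 3 embryos, an exact test cannot give a p under 0.1, and the smallest SO− library limits counts of rare members. The number of members called was 2 in the comparison as reported. It was 1 with limma-voom, beside 91 of 12067 genes tested, and 1 with copies added to members, beside 2.53% of all genes. With the replicate number as a block it was 4 (Rps2, Rps18, Rpl3 at −0.44 and Rplp0 at −0.25 on the log2 scale), beside 929 of 12067 genes. Leaving out 1 SO− embryo gave 0 or 1. In fits with 1 SO+ embryo left out, the lone SO+ embryo is assumed to vary like the SO− embryos. The number called was 0 without SO− embryo 1 in edgeR's test (3 at an unadjusted p under 0.05), beside 46 of 14395 genes tested. It was 1 without SO− embryo 2, beside 35 of 14385 genes, and 1 without SO− embryo 3, beside 263 of 14386 genes. DESeq2, other scalings, other filters, length or GC trends and thinning gave 2. Relative to the pool the number was 1 with copies added, beside 217 of 11900 genes. It was 1 without SO− embryo 1 (37 of 14395 genes), 1 without SO− embryo 2 (32 of 14385 genes) and 2 without SO− embryo 3 (268 of 14386 genes). Rps2 kept its call in all but the fit with copies and that without SO− embryo 1 (adjusted p = 0.0642). Same-numbered embryos are different animals, so the numbers were not taken to pair them. Their deviations correlated at −0.009 and 0.122. With only 2 SO+ embryos, SO− embryo 2 has −0.122 with SO+ embryo 1 by construction, so these values cannot decide whether embryos pair. Relative to the pool, 3 members were called under the block, beside 1137 of 12067 genes. The difference in summed CPM under the block was −0.094 on the log2 scale. The block also called 1 initiation factor, 2 ribosome biogenesis factors, 1 RNA polymerase I gene, 6 VE markers, 5 epiblast markers and 2 ExE markers. These counts stand beside the 929 of 12067 genes that the block called, where the comparison as reported called 283.

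The median log2 fold change lay between −0.114 and 0.010 with 1 embryo left out. The standard deviation among members was 0.471 with DESeq2 and 0.765 without a filter, and between 0.161 and 0.807 with 1 embryo left out; the high values are fits in which Rpl3l enters the list. It was 0.133 with at least 10 counts in every embryo, 0.161 with thinned SO+ libraries, 0.121 with copies added and 0.104 without Rps2 and Rps18. The difference in summed CPM ranged from −0.094 to 0.021 with 1 embryo left out, and turned positive without SO+ embryo 1 (0.0088) or SO− embryo 2 (0.021). The difference in the small to large ratio kept its direction in all alternatives run. Among single genes, Rps20 turned to −0.0055 under the block, and leaving out 1 embryo gave ranges of −0.050 to 0.20 for Rps20, −0.46 to 0.0074 for Rpl3 and −0.0097 to 0.50 for Rpsa on the log2 scale. The shares of paralogs turned direction in the same way, with ranges of −3.15 to 1.15 percentage points for Rps27l, −0.30 to 0.14 for Rpl39l, −1.17 to 0.31 for Rpl7l1 and −0.58 to 2.30 for Rpl36al. The cause of these changes was not tested.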
